A study of Mus musculus with 2 samples.

Results

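Levels of 8 genes that mark peripheral glia, out of 55536 annotated genes, were described in the mouse adrenal gland. The genes were Sox10, S100b, Mbp, Pmp22, Erbb3, Foxd3, Gfap and Fabp7, each named for Schwann cells or for the sustentacular cells of the adrenal medulla. They were taken by gene symbol, and each symbol matched 1 gene identifier. The data were total RNA sequencing of adrenal gland tissue from male B6CASTF1/J mice, hybrid offspring of an inbred laboratory parent and a wild-derived inbred parent, aged 25 days and supplied by The Jackson Laboratory. There was 1 group of 2 libraries, with no treatment, no engineered allele and no second condition in the labels. Each library was made from 300 ng of RNA, from which ribosomal RNA had been reduced and to which ERCC spike-ins had been added. The biosample labels give animal 3 for replicate 1 and animal 4 for replicate 2, the library labels give animal 3 for both, and the donor label is the same. Differences between the libraries may therefore be technical, and each test compares these 2 samples against counting error only.

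Schwann cells ensheath peripheral nerve fibres, and those around large axons wind their membrane into myelin. The adrenal medulla also holds sustentacular cells, glia that wrap the catecholamine-producing chromaffin cells, and both glial types arise from the neural crest. In this lineage the transcription factor Sox10 drives glial identity, the receptor Erbb3 takes up neuregulin signals from axons, and Mbp and Pmp22 encode structural myelin proteins. The tissue was taken whole, so fewer cells of a type and less RNA per cell cannot be told apart in any value below.

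The libraries stood apart in genes of other tissues. Replicate 1 held 35283841 counts and replicate 2 held 35156690. The 7 hepatocyte markers had summed levels of 111.56 TPM (replicate 1) and 21097.1 TPM (replicate 2), where TPM is a count divided by transcript length and scaled to a fixed total per library. The 6 skeletal muscle markers summed to 1142.87 and 1.84 TPM. No marker of either list was at 0 in either library. Chromaffin markers summed to 1611.56 and 1094.82 TPM, and cortex markers to 8936.8 and 4787.67 TPM, with all 7 and all 6 detected, a word used here for a TPM of 1 or more in each library. Markers of the labelled tissue were thus present in both libraries.

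The glial genes ranged from low to moderate levels. By mean TPM, Pmp22, S100b, Erbb3 and Mbp lay above 87.9%, 66.3%, 64.3% and 53.3% of nuclear protein-coding genes, and the other 4 above 32.4% to 40.2%. In counts they summed to 2963 in replicate 1 and 4330 in replicate 2, and without Erbb3 to 2771 and 1704. Pmp22, S100b and Mbp, 3 of the 8, were detected, and Erbb3 reached 1 TPM in replicate 2 alone. None of the 8 was at 0 counts. By mean TPM the order was Pmp22, S100b, Erbb3, Mbp, Fabp7, Sox10, Foxd3 and Gfap. The ranges over the libraries overlapped for S100b and Erbb3 and for Erbb3 and Mbp. The other neighbours did not overlap, but the counting intervals of the lowest 4 were wide. The authors quantified each library in 2 ways, and values are those of the first unless the second is named. With TPM taken relative to nuclear protein-coding genes alone, or with TPM of the second quantification, 6 of the 8 reached 1 in both libraries.

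**Figure D1:**
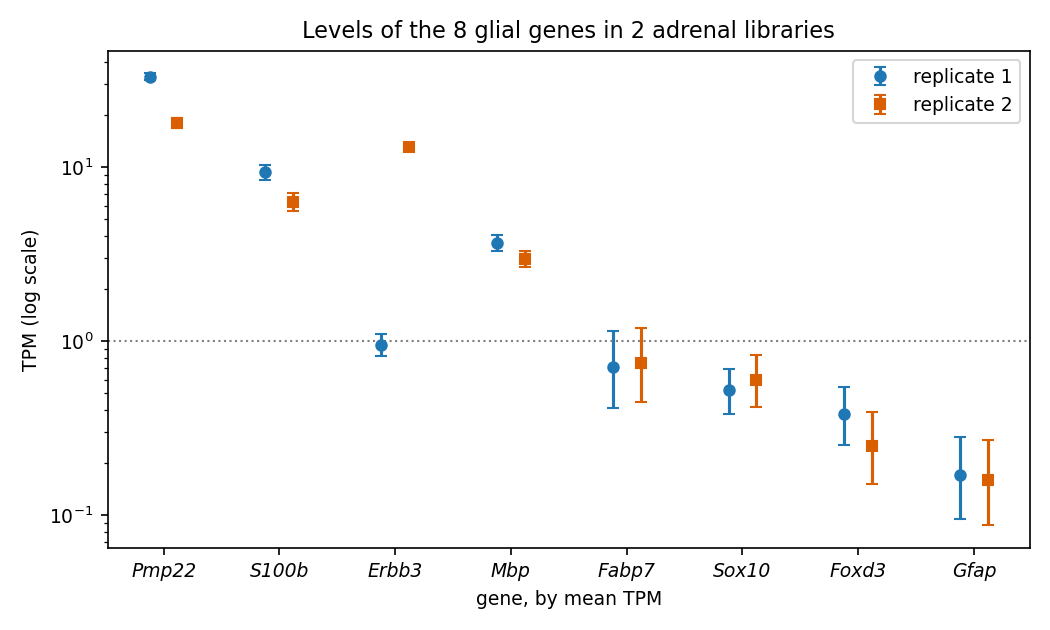
Level of each of the 8 glial genes in TPM (log scale), with circles and squares for replicates 1 and 2 and bars for the 95% exact Poisson interval of the count. Erbb3 lies at 0.95 and 13.08 TPM, while the points of the other genes lie within 2-fold of each other.

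Between the libraries, 1 of the 8 genes was called, Erbb3, which was higher in replicate 2. A gene was called when its adjusted p was at most 0.05 and its difference at least 2-fold, after library sizes were scaled by TMM, which sets the bulk of genes equal. Over all 19801 genes tested, 8.56% were called higher in replicate 2 and 2.29% were called lower. At any fold, 39.1% of all tested genes passed the adjusted p, and 3 of the 8 did: Erbb3 was higher, and Pmp22 and S100b were lower, in replicate 2. The other 5 did not pass. In the second quantification S100b did not pass either (exact binomial test, adjusted p = 0.191). The median log2 ratio of the 8 was -0.03, beside -0.01 over all tested genes. Each test was a two-sided exact binomial test of the counts with Benjamini-Hochberg adjustment over all tested genes, covers counting error only and has no replicate check. The scaling mattered for small ratios: over the 14096 genes whose mean level reached 1 TPM, the median log2 ratio was -0.01 after TMM, -0.25 after scaling to total counts and -0.37 after scaling to spike-in totals. Of all calls, 78.9% were higher in replicate 2 under TMM, 66.6% under total counts and 57.5% under spike-in totals. The share of all tested genes that passed at any fold was 55.7% under total counts and 64.1% under spike-in totals.

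Transcription factors of the glial lineage were among the lowest of the 8. Sox10 (ENSMUSG00000033006.10, mm10 chromosome 15, 79154908 to 79165240, minus strand), a SoxE factor needed for Schwann cells, had 46 counts in replicate 1 and 35 in replicate 2. The 95% exact Poisson intervals were 33.7 to 61.4 and 24.4 to 48.7 counts. In TPM it was at 0.52 and 0.60, a mean of 0.560 ± 0.0566 (SD, n = 2), above 38.6% of nuclear protein-coding genes. Its count was thus lower and its TPM higher in replicate 2, but in the second quantification the TPM was 1.12 and 1.09, and the intervals of the counts overlapped. All counts of replicate 1 were placed on Sox10-201, and in replicate 2 26.57 were, with the rest on the shorter Sox10-202 and Sox10-204. The posterior SD in replicate 1 was 12.31 counts for Sox10-201 and 12.21 for Sox10-203. The second quantification placed 91.7% of the counts of replicate 1 on Sox10-201 but none of replicate 2, where Sox10-203 took 29.87 counts (76.6%). Which Sox10 transcript was used was therefore uncertain. The effective length by which its count was divided was 2613.99 bases in replicate 1 and 1720.49 bases in replicate 2. The log2 ratio of the Sox10 counts was -0.16 with a 95% counting interval of -0.83 to 0.51, and did not pass the exact binomial test (adjusted p = 0.851).

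Foxd3 (ENSMUSG00000067261.4, chromosome 4, 99656299 to 99658622, plus strand) is a forkhead factor of the early neural crest and of glial precursors. It had 29 counts, with an interval of 19.4 to 41.6, in replicate 1 and 19 counts, with an interval of 11.4 to 29.7, in replicate 2. These were 0.38 and 0.25 TPM, a mean of 0.315 ± 0.0919 (SD, n = 2). The intervals of the counts overlapped, and the log2 ratio was -0.37 with an interval of -1.29 to 0.51 (exact binomial test, adjusted p = 0.643). Foxd3 has a single exon, 89 bases of which it shares with the microRNA gene Gm23366 on the same strand, itself at 0 counts.

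A list of 8 other neural crest and SoxE factors held 3 detected genes. They were Tfap2b at 4.40 and 3.03 TPM, Mitf at 2.69 and 1.92 TPM and Snai2, a repressor linked to crest cell migration, at 2.18 and 2.27 TPM. Sox9, the SoxE paralog of Sox10 that is also a bile duct gene, was at 0.57 and 0.72 TPM. Of 7 tested, 1 passed as higher in replicate 2 with TMM scaling, Sox9, none passed as lower, and none was called. With total counts none passed as higher and 2 as lower, and the same numbers held with spike-in totals. Pax3 had 0 counts in both libraries, where 3 counts would have been 0.0266 and 0.0268 TPM.

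Erbb3 (ENSMUSG00000018166.8, chromosome 10, 128567523 to 128589652, minus strand) encodes the neuregulin receptor of Schwann cells, and it is also expressed in liver. It had 192 counts in replicate 1, with an interval of 166 to 221, and 2626 in replicate 2, with an interval of 2527 to 2728. In TPM it was at 0.95 and 13.08, a mean of 7.02 ± 8.58 (SD, n = 2), so the spread exceeded the mean. The log2 ratio was 4.01 with a 95% counting interval of 3.80 to 4.23, a 16.1-fold difference with bounds of 13.9 and 18.8. The adjusted p of the exact binomial test was too small for double precision to hold. In the second quantification Erbb3 was at 1.68 and 20.1 TPM. The annotation gives it 1 transcript of 28 exons, so transcript choice did not enter its level.

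The hepatocyte markers moved the same way. All 7 were called higher in replicate 2, with a median log2 ratio of 9.74. Alb, serum albumin, was at 16.3 and 11949 TPM, Apoa2 at 2.97 and 2362 TPM, Ahsg at 3.30 and 2129 TPM, and Apoa1 at 3.53 and 1962 TPM. Per 1000 TPM of the hepatocyte list, Erbb3 came to 8.52 and 0.62 TPM. Per 1000 TPM of the chromaffin list it was at 0.589 and 11.9 TPM. The part of the hepatocyte genes in the Erbb3 difference was not tested. Of the 4 bile duct markers, Krt19 and Krt7 were called higher with TMM, at 45 and 79 counts and at 33 and 67 counts. Krt7 had 70.2 and 106.6 counts in the second quantification. With total counts 1 of the 4 was called and with spike-in totals none was. The list summed to 2.33 and 3.26 TPM, and Epcam, a defining marker, had 2 and 8 counts.

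The other neuregulin genes and ErbB receptors gave the setting of Erbb3. Egfr, the epidermal growth factor receptor and also a gene of liver, had 646 and 10855 counts, or 3.37 and 67.23 TPM, and was called higher with a log2 ratio of 4.31 (interval 4.19 to 4.43). Erbb2, the co-receptor with which Erbb3 signals, was at 1.80 and 1.42 TPM, with 243 and 232 counts, and did not pass the test. The Erbb3 level was below that of Erbb2 in replicate 1 and above it in replicate 2. Erbb4 had 35 and 68 counts and was called higher with TMM at a log2 ratio of 1.20. With total counts or spike-in totals it was below 2-fold. Of the ligands, Nrg4 was highest at 9.31 and 8.16 TPM. Nrg3 was at 1.34 and 1.06 TPM, and Nrg1, the axonal ligand that acts on Schwann cells, at 0.59 and 0.44 TPM. Nrg2 was at 0.14 and 0.08 TPM. Of the 7 genes, 2 passed as higher with TMM and 5 did not pass, namely the 4 ligands and Erbb2.

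**Figure D2:**
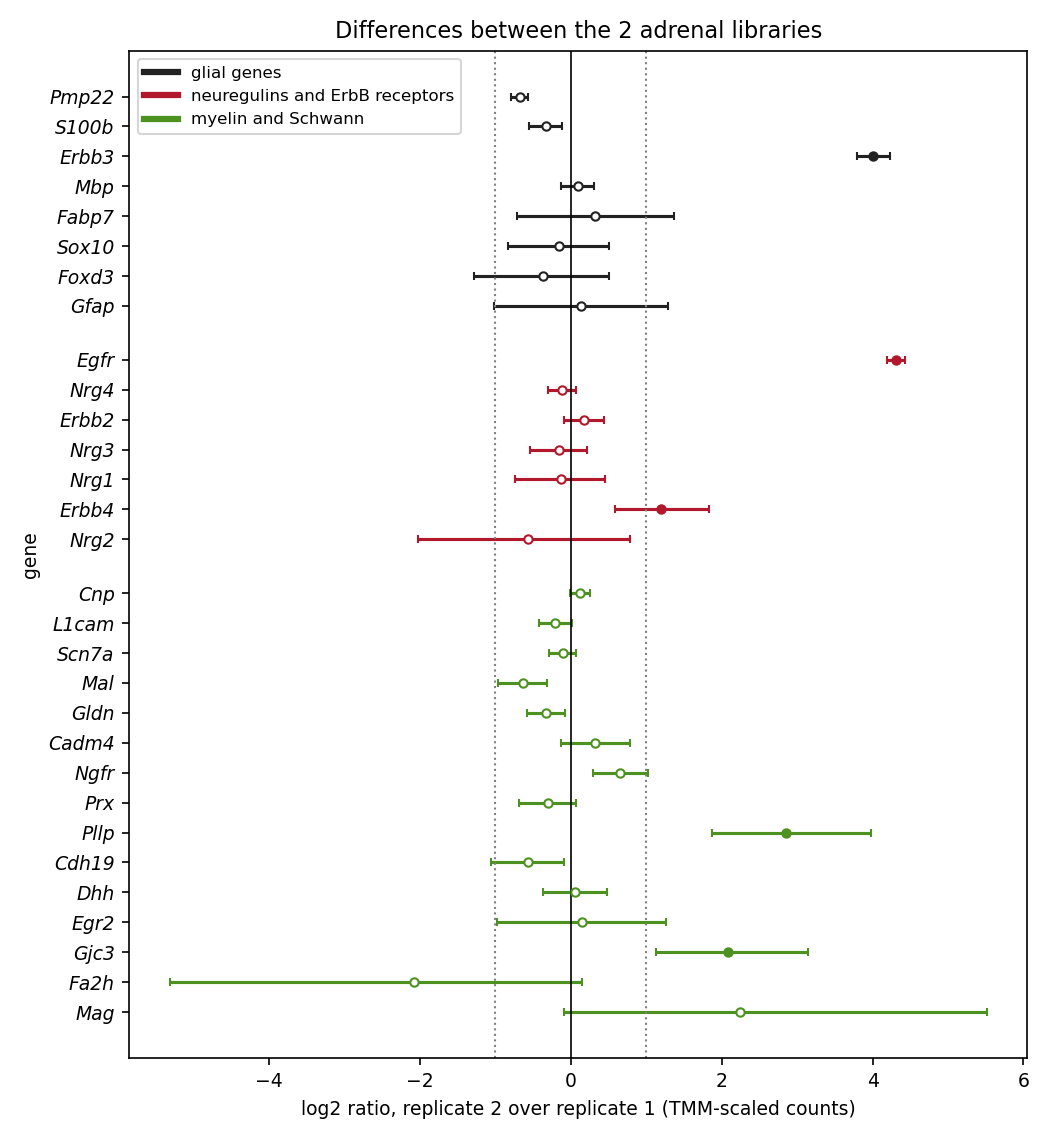
Log2 ratio of the counts, replicate 2 over replicate 1 after TMM scaling, with 95% counting intervals, for the glial genes, the neuregulin and ErbB list and most of the tested myelin and Schwann genes. Filled points were called, and dotted lines mark 2-fold. Erbb3 (4.01) and Egfr (4.31) lie far to the right, and most intervals of the others reach 0.

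Pmp22 was the highest of the 8 genes. Pmp22 (ENSMUSG00000018217.12, chromosome 11, 63128982 to 63159547, plus strand) encodes a membrane protein of compact myelin that is also made in many tissues outside nerve. It had 1838 counts in replicate 1, with an interval of 1755 to 1924, and 974 in replicate 2, with an interval of 914 to 1037. In TPM it was at 32.97 and 17.88, a mean of 25.4 ± 10.7 (SD, n = 2), above 87.9% of nuclear protein-coding genes. The intervals did not overlap. The log2 ratio was -0.68 with an interval of -0.79 to -0.56 and passed the exact binomial test (adjusted p = 1.87e-32), at 1.60-fold and so below the 2-fold limit of a call. With spike-in totals it was -1.04, and Pmp22 was then called lower. Per 1000 TPM of the cortex list Pmp22 was at 3.69 and 3.73 TPM, and per 1000 TPM of the chromaffin list at 20.5 and 16.3 TPM.

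The 5 annotated Pmp22 transcripts have separate starts, and 4 of them carry the same coding sequence of 480 bases. Alternative non-coding first exons of Pmp22, each with a promoter of its own, are known from nerve and other tissues. The 250 bases before the starts of the transcripts that took most counts are printed here, since the quantifications disagreed on which start was used. They come from RefSeq on GRCm38.p6, plus strand, at chr11:63128732-63128981 for the upstream start and chr11:63131207-63131456 for the downstream start. Capitals mark each CG dinucleotide.
Pmp22 upstream promoter: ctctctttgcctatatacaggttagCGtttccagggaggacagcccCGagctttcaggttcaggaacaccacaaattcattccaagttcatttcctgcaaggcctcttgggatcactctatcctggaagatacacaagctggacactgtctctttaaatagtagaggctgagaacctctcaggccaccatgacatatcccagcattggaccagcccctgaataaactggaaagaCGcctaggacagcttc
Pmp22 downstream promoter: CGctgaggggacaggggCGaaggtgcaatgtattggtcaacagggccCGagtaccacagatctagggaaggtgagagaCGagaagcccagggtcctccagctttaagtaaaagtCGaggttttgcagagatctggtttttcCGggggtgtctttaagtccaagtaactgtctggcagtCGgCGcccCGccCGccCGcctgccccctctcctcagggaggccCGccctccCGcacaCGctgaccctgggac
The upstream promoter lies directly before the start of Pmp22-204 and holds 3 CG. The downstream promoter ends before a RefSeq start 55 bases from that of Pmp22-201 and holds 14 CG. Over 32851 promoter windows of this length the median was 6 CG with quartiles of 2 and 16. Of these windows, 29.0% held fewer than 3 CG and 70.6% held fewer than 14. A CG was searched on the printed strand, where it reads the same on the other strand.

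Counts were split between these starts in opposite ways. In the first quantification Pmp22-201, from the downstream start, took 1783.39 and 886.77 counts, which were 97.0% and 91.0% of the gene. Pmp22-204, from the upstream start 2530 bases away, took 17.94 and 52.35 counts, or 0.976% and 5.37%. In the second quantification Pmp22-204 took 83.9% and 73.2% of the gene's counts and Pmp22-201 took 12.2% and 21.9%. The order of Pmp22-201 and Pmp22-204 was therefore the same in both libraries within a quantification and reversed between the quantifications. The authors' posterior SD was 26.61 and 36.75 counts for Pmp22-201 and 19.66 and 33.64 counts for Pmp22-204, far smaller than the shift between the quantifications. Of its 1822 bases Pmp22-204 has 169 in no other Pmp22 transcript, and of its 1800 bases Pmp22-201 has 144. Whether the upstream or the downstream start was used more was not settled by these tables. The second quantification gave the gene 1958 and 1023 counts, close to the first, but 73.6 and 40.1 TPM, against 32.97 and 17.88 TPM in the first.

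The 3 relatives of Pmp22 in its protein family were detected. Emp3 was at 133.9 and 106.22 TPM, Emp1 at 13.69 and 10.55 TPM and Emp2 at 2.53 and 2.07 TPM. Emp3 passed as lower in replicate 2 and the others did not pass with TMM. All 3 passed as lower under either of the other scalings.

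Mbp (ENSMUSG00000041607.17, chromosome 18, 82475146 to 82585637, plus strand) encodes myelin basic protein, which holds the cytoplasmic faces of the myelin membrane together. It had 386 counts in replicate 1, with an interval of 348 to 426, and 348 in replicate 2, with an interval of 312 to 387. Its levels were 3.66 and 2.98 TPM, a mean of 3.32 ± 0.481 (SD, n = 2). The intervals of the counts overlapped. The log2 ratio was 0.09 with TMM (interval -0.12 to 0.30, exact binomial test, adjusted p = 0.600), -0.14 with total counts and, past the adjusted p, -0.27 with spike-in totals (adjusted p = 0.0215). Its direction thus rested on the scaling.

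The Mbp gene has an upstream start region, from which the Golli transcripts are known to arise in cells outside myelin as well, and a downstream start region of the classic myelin transcripts. The first annotated starts of these regions lie 79324 bases apart. The 4 transcripts of the upstream region took 310.35 and 317.16 counts. These were 80.4% (95% exact Clopper-Pearson interval 76.0 to 84.2) of the gene's counts in replicate 1 and 91.1% (87.6 to 93.9) in replicate 2. The 11 transcripts of the downstream region took 74.41 and 30.84 counts, or 19.3% (15.4 to 23.5) and 8.86% (6.13 to 12.4). The transcripts of the upstream region thus held most Mbp counts in both libraries. In the first quantification the intervals of the libraries did not overlap. These intervals cover counting error only and leave out the error of placing reads on transcripts. The second quantification gave the upstream region 89.0% and 93.3%, a smaller difference between the libraries, for which no intervals were computed. In TPM, which weights by length, the first quantification gave it 59.8% and 83.3%.

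A single long transcript carried most of the upstream counts. Mbp-205, of 4797 bases, took 274.13 and 267.09 counts in the first quantification and 307.32 and 294.84 in the second. It is the transcript with the most bases of its own, 3955 (82.4%) being in no other Mbp transcript and 3953 of those in its last exon. That exon is 4384 bases long, starts 150 bases before the first classic start and runs on into sequence that is intron in the classic transcripts, and the tables do not give where in a transcript the reads lay. Without Mbp-205 the upstream region held 36.22 and 50.07 counts beside the 74.41 and 30.84 of the downstream region. The lead of the upstream region in replicate 1 therefore rested on Mbp-205, whereas in the second quantification, without it, the upstream region held 78.3 and 64.9 counts beside 47.4 and 25.8. Mbp-201, which starts upstream and has 7 exons, took 29.68 and 36.43 counts. Of the classic transcripts Mbp-211 took most, with 55.81 and 19.32 counts and a posterior SD of 13.63 and 8.60. In the second quantification Mbp-211 had 0 counts in replicate 2. Single transcripts of the downstream region were therefore uncertain.

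**Figure D3:**
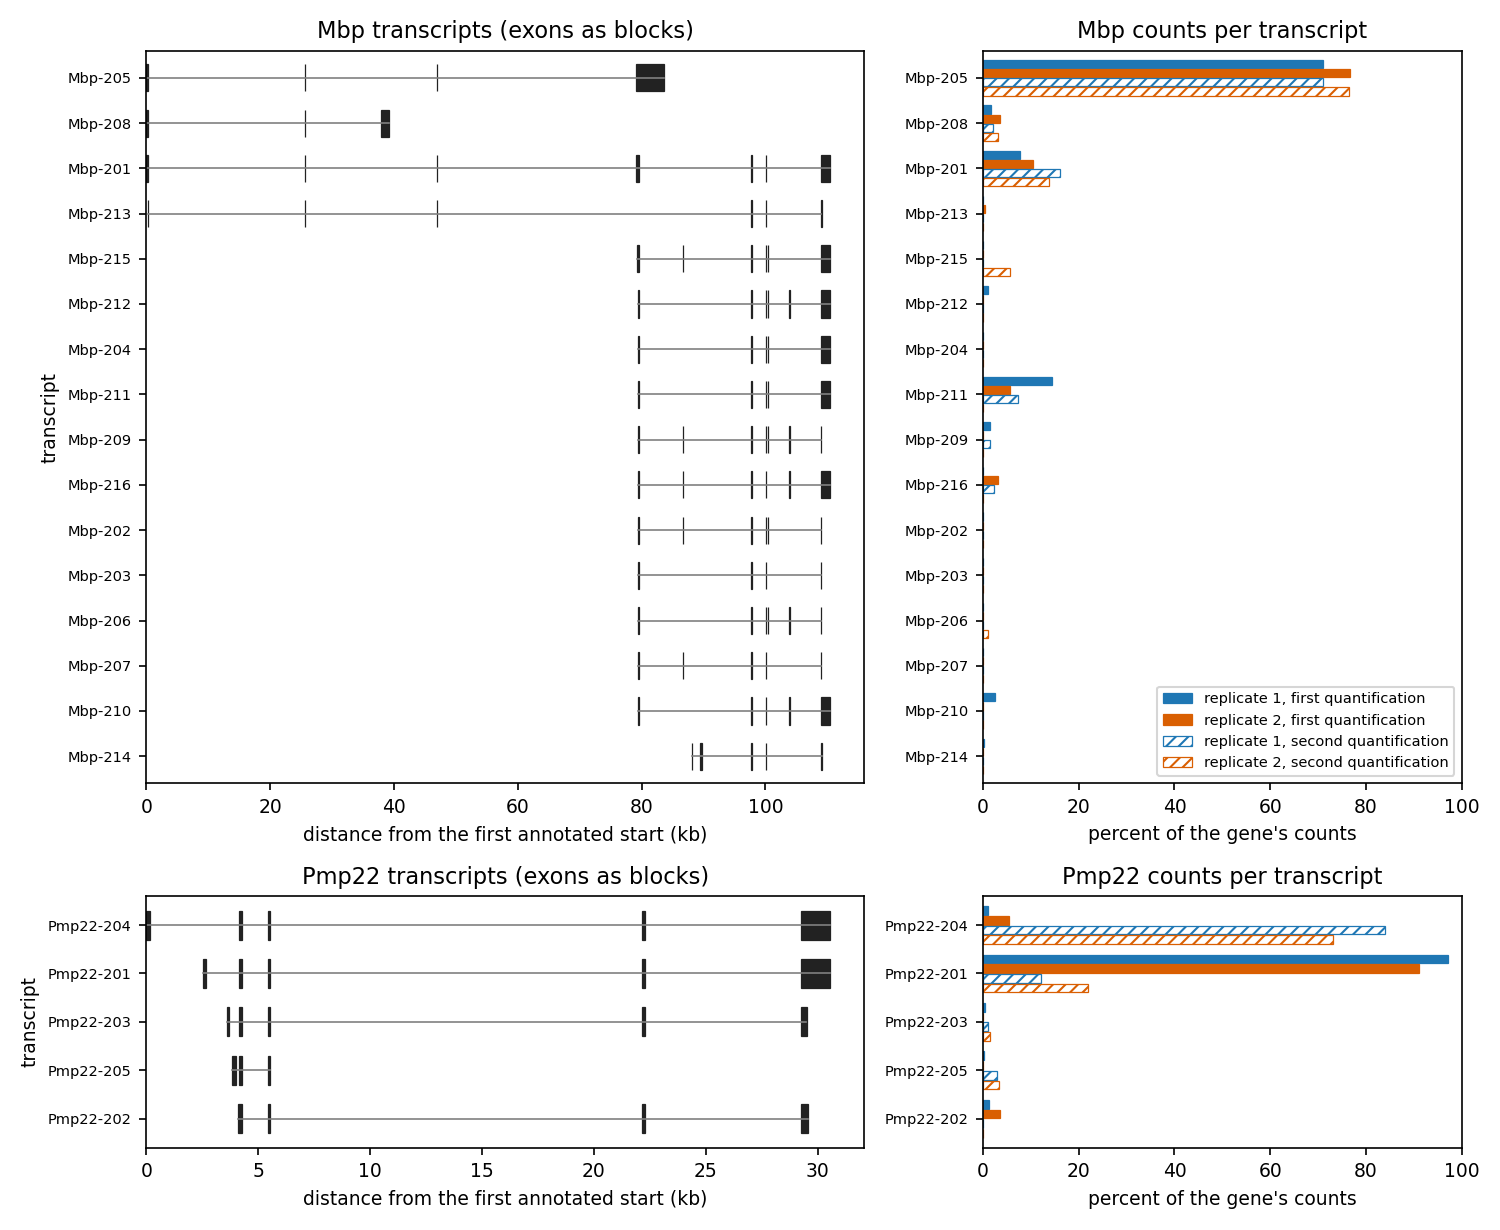
Left, exons of each annotated Mbp and Pmp22 transcript as blocks, against the distance from the first annotated start in kb. Right, the percent of the gene's counts placed on each transcript, with filled bars for the first quantification, hatched bars for the second, and colours for the replicates: Mbp-205 holds 71.0% to 76.8% throughout, and the longest Pmp22 bars change from Pmp22-201 to Pmp22-204.

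A list of 21 other myelin and Schwann genes held 7 that were detected. The highest were Cnp, an enzyme of non-compact myelin that other cells also express, at 13.36 and 12.36 TPM and the adhesion molecule L1cam at 3.79 and 2.59 TPM. Scn7a, a sodium channel relative, was at 2.22 and 1.76 TPM and Mal, a membrane protein of myelin and epithelia, at 2.48 and 1.36 TPM. All 4 lay below Pmp22 in both libraries, and no gene of the list was at 0 counts in both.

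Of these 21 genes 17 were tested. With TMM 3 passed as higher in replicate 2, 3 passed as lower and 11 did not pass, and the median log2 ratio was -0.11. Pllp, plasmolipin, with 10 and 61 counts, was called higher at a log2 ratio of 2.85 (interval 1.87 to 3.98). Gjc3, a gap junction gene, with 12 and 43 counts, was called higher at 2.08 (interval 1.13 to 3.14). In the second quantification Gjc3 had 45.1 and 60.1 counts, so the size of its difference rested on the quantification. With total counts 3 passed as higher and 6 as lower, and with spike-in totals 2 and 9. The split therefore rested on the scaling.

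S100b (ENSMUSG00000033208.7, chromosome 10, 76253853 to 76261159, plus strand) encodes the calcium-binding protein used to stain sustentacular and Schwann cells. It had 440 counts in replicate 1, with an interval of 400 to 483, and 296 in replicate 2, with an interval of 263 to 332. The levels were 9.30 and 6.30 TPM, a mean of 7.80 ± 2.12 (SD, n = 2), above 66.3% of nuclear protein-coding genes. The intervals did not overlap. The log2 ratio was -0.33 with an interval of -0.55 to -0.12 and passed the exact binomial test (adjusted p = 0.00719) without reaching 2-fold. In the second quantification S100b had 392 and 290 counts, and the log2 ratio was -0.19 and did not pass that test (adjusted p = 0.191). Per 1000 TPM of the chromaffin list S100b was at 5.77 and 5.75 TPM, and per 1000 TPM of the cortex list at 1.04 and 1.32 TPM. It lies across from Dip2a on the other strand, with 0 shared exon bases.

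The chromaffin and cortex lists moved the same way as S100b and Pmp22. All 7 chromaffin genes passed as lower in replicate 2 with a median log2 ratio of -0.28, and all 6 cortex genes passed as lower with a median of -0.66. The skeletal muscle markers were lower in replicate 2 as well, as given above. The part of these lists in the S100b and Pmp22 values was not tested. Per 1000 TPM of the chromaffin list Sox10 was at 0.323 and 0.548 TPM, Mbp at 2.27 and 2.72 TPM, Fabp7 at 0.441 and 0.685 TPM, Foxd3 at 0.236 and 0.228 TPM and Gfap at 0.105 and 0.146 TPM. These ratios need no scaling between the libraries, but they do rest on the effective lengths. For Sox10 the effective length was 2613.99 and 1720.49 bases, from an uncertain split over transcripts, and its count was lower in replicate 2.

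The S100 family held members above and below S100b. Of 9 other members 7 were detected. S100a1 was at 62.21 and 59.05 TPM, S100a10 at 53.0 and 67.56 TPM, S100a11 at 55.29 and 49.37 TPM and S100a16 at 19.02 and 20.11 TPM. S100b was below each of these 4 in both libraries, and also below S100a6 at 12.94 and 14.77 TPM and S100a13 at 13.31 and 11.15 TPM. It was above S100a4, S100a8 and S100a9 in both. With TMM 5 of 8 tested passed as higher, with total counts 2 did and none passed as lower, and with spike-in totals 2 passed as higher and 3 as lower. S100a9, a neutrophil gene, was called higher from 1 and 10 counts.

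Gfap was the lowest of the 8. Gfap (ENSMUSG00000020932.14, chromosome 11, 102887336 to 102900912, minus strand) encodes an intermediate filament of astrocytes that non-myelinating Schwann cells and some sustentacular cells also contain. It had 15 counts in replicate 1, with an interval of 8.40 to 24.7, and 14 in replicate 2, with an interval of 7.65 to 23.5. This gave 0.17 and 0.16 TPM, a mean of 0.165 ± 0.00707 (SD, n = 2), above 32.4% of nuclear protein-coding genes. The log2 ratio was 0.14 with TMM, with an interval of -1.02 to 1.29, but -0.09 under total counts and -0.22 under spike-in totals, so no direction could be given. A difference of 2-fold either way was within the interval and would not have been detectable at this depth.

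Most other intermediate filament genes were higher. Vim, vimentin, was at 65.09 and 57.34 TPM, the muscle filament gene Des at 22.15 and 4.10 TPM, Nes, nestin, at 6.26 and 2.77 TPM and the neuronal Ina at 2.20 and 1.63 TPM. Des and Nes were called lower in replicate 2, and the other 6 of the 8 did not pass with TMM. The 6 skeletal muscle markers were all called lower as well, with a median log2 ratio of -10.88, and Acta1 was at 425.63 and 0.07 TPM. Markers of central glia were mostly low. Olig2 and Mog, which define oligodendrocytes, had 0 counts in both libraries, where 3 counts would have been 0.0361 and 0.0364 TPM for Olig2 and 0.0823 and 0.0829 TPM for Mog.

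In the list of 8 astrocyte and oligodendrocyte genes the abundant ones are also genes of other tissues. Aldh1l1, a folate enzyme abundant in liver, was at 40.06 and 152.74 TPM and was called higher. Slc1a2, a glutamate transporter also found in liver, was at 0.18 and 8.67 TPM and was called higher. Aqp4, a water channel, was at 0.48 and 0.79 TPM, from 47 and 87 counts, and was called higher with TMM but not with total counts or spike-in totals. Slc1a3, a glutamate transporter, was at 6.51 and 6.37 TPM and did not pass. The hepatocyte markers given above moved with these genes, and their part was not tested.

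Fabp7 (ENSMUSG00000019874.11, chromosome 10, 57784881 to 57788450, plus strand) encodes a fatty acid binding protein of glial precursors. It had 17 counts in replicate 1, with an interval of 9.90 to 27.2, and 18 in replicate 2, with an interval of 10.7 to 28.4. In TPM it was at 0.71 and 0.75, a mean of 0.730 ± 0.0283 (SD, n = 2), and all counts were placed on Fabp7-201, a short transcript of 804 bases. Fabp7 thus had fewer counts than Sox10 or Foxd3 and a higher TPM than either in the first quantification. In the second, Fabp7 was at 1.09 and 1.40 TPM, below Sox10 in replicate 1. The log2 ratio was 0.32 with an interval of -0.72 to 1.37 (exact binomial test, adjusted p = 0.777), and -0.04 with spike-in totals.

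Of the 6 other fatty acid binding proteins, Fabp3, Fabp4 and Fabp5 were above Fabp7 in both libraries. Fabp4, of adipocytes and endothelium, was at 1106.86 and 794.65 TPM and Fabp5 at 18.65 and 23.58 TPM. Fabp1, the liver protein, was at 0.32 and 841.21 TPM and was called higher, and Fabp3, the heart and muscle protein, was at 24.40 and 8.02 TPM and was called lower. Fabp2 had 0 and 296 counts and was called higher, at least 116-fold with 3 counts in place of the 0. Fabp6 had 0 counts in both. All 5 tested genes passed, 3 as higher and 2 as lower, and those numbers were the same with total counts and spike-in totals.

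Markers of further cell types in the gland were measured beside the glial genes. Fibroblast markers summed to 275.03 and 260.07 TPM, adipocyte markers to 1275.42 and 905.65 TPM, with Lep (118 and 256 counts) called higher with TMM, and endothelial markers to 180.13 and 146.19 TPM, with every marker detected. Neuron markers summed to 18.37 and 15.28 TPM with 4 of 6 detected. Melanocyte markers, a further crest lineage, summed to 0.44 and 0.79 TPM with none detected. Tyrp1 was at 0 counts in both libraries, and Dct, with 4 and 22 counts, was called higher. Dct had 32.9 and 60.3 counts in the second quantification. The 8 glial genes summed to 48.66 and 42.0 TPM, and to 47.71 and 28.92 TPM without Erbb3. Pmp22 alone gave 32.97 and 17.88 TPM of this sum. The glial sum was lower than those of the endothelial, fibroblast, adipocyte, chromaffin and cortex markers in both libraries, with or without Erbb3. It was higher than those of the neuron and melanocyte markers. Without both Pmp22 and Erbb3, however, the glial sum was below that of the neuron markers in both libraries. It was then still above that of the melanocyte markers. The lists differ in size and in choice of genes, so their sums do not rank cell types.

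**Figure D4:**
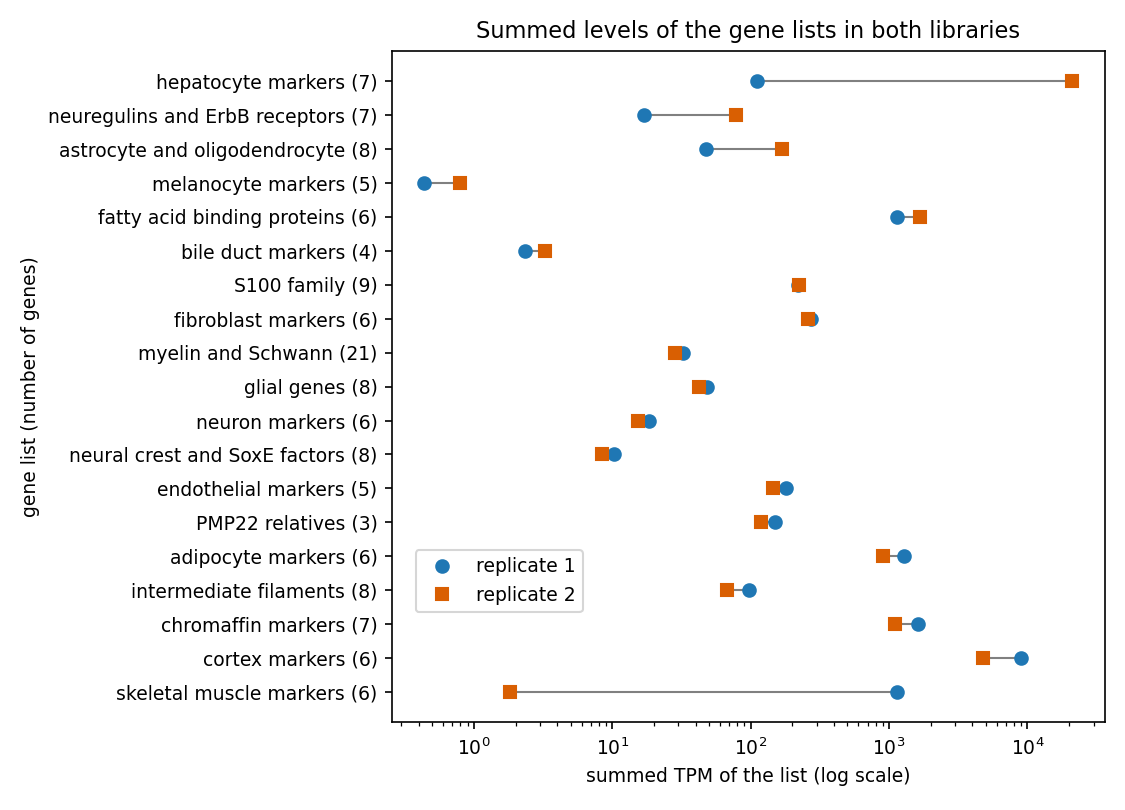
Summed TPM (log scale) of the 8 glial genes and of the 18 gene lists, with circles for replicate 1 and squares for replicate 2. The hepatocyte and skeletal muscle sums lie orders of magnitude apart between the libraries, and the glial sum lies at 48.66 and 42.0.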

How the data were processed

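Both libraries were total RNA of adrenal gland, and the replicate numbers are those of the labels. Per the deposited text files, each library was quantified a first time from reads aligned to transcripts and a second time from reads matched to an index, both on mm10 with annotation M21. For the aligner, the quantifiers, their versions and the use of strand in counting, the entry is: not given in the sources used here. The authors' first tables give, per the file headers, expected counts and TPM of genes and transcripts, each transcript's percent of its gene's TPM, and posterior SDs and intervals. The authors' second tables give estimated counts and TPM of transcripts, per the file headers, and were summed per gene here. All 55536 gene identifiers matched GENCODE M21. Entries naming no gene, 0.839% and 0.915% of counts, stayed out of library sizes and tests, except that the spike-ins served as an alternative scaling.

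The libraries held 34987819 and 34835147 counts on annotated genes. After rounding of the expected counts to whole numbers, genes with at least 10 in total were tested by a two-sided exact binomial test against library sizes scaled with TMM (edgeR 4.0.16, factors 1.08 and 0.923), with Benjamini-Hochberg adjustment. With 1 library on each side no model with residual degrees of freedom could be fitted. A ratio from a library at 0 used 3 counts in its place. Intervals of counts are 95% exact Poisson intervals, and all intervals cover counting error only, since reads without molecular identifiers are not independent molecules. The test was run on simulated counts with counting error only, which says nothing about false calls between these libraries. Scripts ran in Python 3.11.15 with scipy 1.17.1, and R 4.3.3 with DESeq2 1.42.0 for alternative size factors. The 8 genes and the 18 lists (127 symbols, all matched) were chosen with earlier results of these data known. Of each list the 4 genes highest in mean TPM, those called and those at 0 counts in both libraries were to be named. Genes named beyond that were chosen after their values were seen, and most of those from lists of other cell types are given only within the sum of their list. Alternatives were other scalings, count filters, the second quantification, posterior mean counts and other TPM thresholds. Some genes of the lists are not reported here by name. No genes were ranked by likeness of pattern, since 2 libraries give 1 ratio per gene. RefSeq promoters on GRCm38.p6 were found for 5 of the 8 genes and not for Sox10, Mbp or Erbb3.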

Additional observations from a re-analysis of the deposited data

How the results depend on the processing

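The 8 genes counted as called stayed at 1 under 6 of 7 alternatives and came to 2 with spike-in totals, where Pmp22 was added at a log2 ratio of -1.04 (exact binomial test, adjusted p = 6.36e-76). Signs turned in 5 cases: Mbp to -0.14 under total counts and -0.27 under spike-in totals, Gfap to -0.093 and -0.22, and Fabp7 to -0.037 with spike-in totals. Under the other count filters a log2 ratio equals the main one by construction. With those included, another 47 log2 ratios kept their sign and their side of the limit for a call. Within that limit S100b went from -0.33 to -0.19 in the second quantification and no longer passed the exact binomial test (adjusted p = 0.191), while it passed under the other 6 alternatives. Foxd3, Gfap and Fabp7 could not be tested with at least 50 counts required. Over all genes, calls lower in replicate 2 numbered 454 under TMM, 727 under total counts and 1003 under spike-in totals, and calls higher 1695, 1451 and 1356. With at least 50 counts required, calls lower numbered 291. The cause was not tested. The number of detected genes was 3. It was 6 at a threshold of 0.5 TPM, 6 in the second quantification and 6 relative to nuclear protein-coding genes, and 3 to 4 when either library was left out. Mean TPM moved beyond the SD in 15 of 32 recomputations. Those that left out 1 of the 2 libraries could not move that far, since their shift is always smaller than the SD. Relative to nuclear protein-coding genes the mean moved for every gene, and in the second quantification for every gene but Erbb3. The share of TPM on the main transcript moved for 3 of 5 genes, most for Pmp22-201, from 89.5% to 11.8%. No paired analysis was possible because there is 1 group. Sox10, Foxd3, Gfap and Fabp7 rest on 14 to 46 counts a library, so only large differences between the libraries would have been detectable.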
